A study of Mus musculus with 8 samples.

Results

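Sertoli cells are the somatic nurse cells of the seminiferous tubule, and 9 genes of their regulators and products were followed across testis arrays of 4 genotypes: the transcription factors Wt1, Gata4 and Gata1, the receptor Fshr, the secreted factors Clu, Kitl and Dhh, the water channel Aqp8, and Aard. All probe sets annotated to one of these symbols were taken, 13 of the 12422 probe sets on the array that are not controls, for 9 of the 8251 genes named by a probe set with 1 symbol. The genes were picked because as a group they were higher in knockouts than in wild type on these same arrays, so every difference from wild type given for them is a description with no test. Of the 13 probe sets, 12 passed the filter on low signal. The one left out was the dimmest of 3 for Dhh, with signals between 3.2 and 5.8 on all 8 arrays.

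Total RNA from mouse testis was hybridised to Affymetrix MG_U74Av2 arrays, 2 per genotype. The groups were double knockouts (Ku86-/- and Terc-/-, of the third generation without Terc), Ku86 knockouts (Ku86-/-, Terc+/+), Terc knockouts (Ku86+/+, Terc-/-, also of the third generation) and wild type (Ku86+/+, Terc+/+). Ku86, the product of Xrcc5, binds broken DNA ends for non-homologous end joining, and Terc is the RNA template of telomerase, whose loss shortens telomeres over generations. The labels give neither strain nor age, nor whether the 2 arrays of a genotype came from separate animals, so the spread between them may be partly technical. The scanner records call the samples germ cells, list 3 pooled mice behind replicate 1 of the double knockout, and mark wild type replicate 1 as hybridised again.

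Sertoli cells respond to follicle-stimulating hormone through its receptor, feed and anchor developing germ cells, form the blood-testis barrier and secrete proteins into the tubule. Wt1 and Gata4 are zinc finger factors needed for the formation and identity of these cells. The secreted signals reach other cells: Kitl acts on Kit-bearing spermatogonia, and Dhh acts on Leydig and peritubular cells that carry its receptor Ptch1.

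Signals are linear intensities in arbitrary units, scaled by the authors to an equal trimmed mean (2% cut at each end) of 200.1 or 200.2 per array. Median signal was 60.45 and 70.5 on double knockout arrays, 60.4 and 67.3 on Ku86 knockout arrays, 63.8 and 73 on Terc knockout arrays, and 49.65 and 59.3 on wild type arrays. Values under a floor of 11.8 were set to it before log2 was taken, which touched 15.6% to 26.0% of probe sets per array. Double knockout replicate 1 and Ku86 knockout replicate 1 were scanned on day 1, wild type replicate 1 alone on day 3, and the other 5 arrays on day 2. Each scan day had its own chip lot, so scan day and chip lot cannot be told apart here or below. The gene targeted in the Ku86 knockouts went against its label. Its brighter probe set had signals of 259.0 and 423.3 on double knockout arrays and 419.9 and 458.8 on Ku86 knockout arrays, against 71.2 and 11.1 on Terc knockout arrays and 46.3 and 75.6 on wild type arrays. The dimmer Xrcc5 probe set reached 3.4 at most, and Terc had no probe set. The labels do not say where these probes lie relative to the disrupted part of Xrcc5. Genotypes are therefore those written on the labels throughout, and every direction below rests on the labels.

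Taking the brightest probe set of each gene, all 9 genes had a higher mean log2 signal in each of the 3 knockout genotypes than in wild type with the values as deposited, but Fshr and Gata1 did not keep this direction under every alternative. In the double knockout they turned to -0.22 and -0.05 after median centring and to -0.06 and -0.01 after quantile normalization. Fshr also turned without wild type replicate 1, to -0.28 in the double and -0.03 in the Ku86 knockout, and in the double knockout to -0.26 on scan day 2 alone and -0.24 with scan day as a block. The median of the 9 differences was 0.71 for arrays labelled double knockout, 0.50 for those labelled Ku86 knockout and 0.62 for those labelled Terc knockout. Over all 7282 probe sets tested the median difference was also above 0, at 0.08, 0.10 and 0.11 for the same 3 comparisons. For the mean of the 3 knockout genotypes the members' median stood 0.46 above that of all probe sets, and 0.52 above it after quantile normalization. The 3 comparisons share the same wild type arrays, so they do not count as separate evidence. In RNA of mixed cells, whether from testis as labelled or from germ cells as the scanner records say, a higher signal from more Sertoli cells in the sample and from more RNA per Sertoli cell cannot be told apart.

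**Figure D1:**
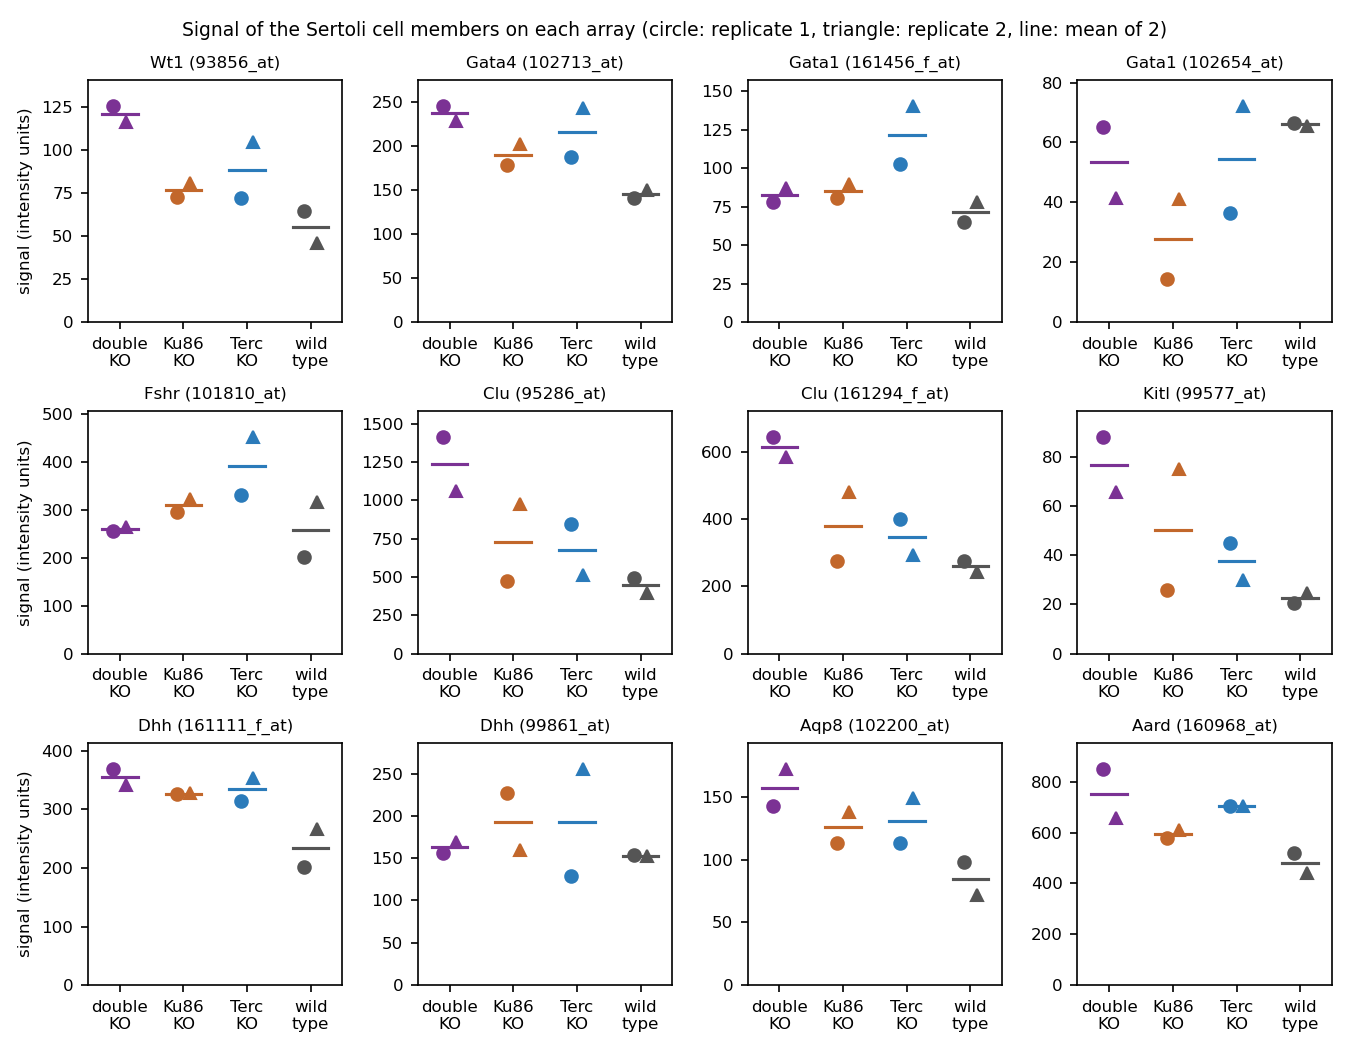
Signal (linear intensity, axis from 0) of the 12 member probe sets that passed the filter, 1 panel each, with genotypes from left to right double knockout, Ku86 knockout, Terc knockout and wild type. The circle is replicate 1, the triangle replicate 2 and the line their mean. Clu and Kitl are highest on average in the double knockouts, as are Wt1, Gata4, the brightest Dhh probe set, Aqp8 and Aard. Fshr and the brighter Gata1 probe set are highest in the Terc knockouts.

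Among the 12 probe sets, 9 had both double knockout arrays above both wild type arrays, where 23.2% of all tested probe sets did so. The count was 8 for the Ku86 knockout, against a background of 24.4%, and 10 for the Terc knockout, against 25.5%. In the opposite direction, 1 probe set was lower without overlap in the double knockout (background 13.2%), 1 in the Ku86 knockout (13.7%) and 0 in the Terc knockout (12.2%). The probe sets with all 6 knockout arrays above both wild type arrays numbered 6: Wt1, Gata4, the brightest of Dhh, Kitl, Aqp8 and Aard (7.62% of all tested). Since these contrasts chose the members, nothing is read from the counts.

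Wt1, the zinc finger factor that maintains Sertoli cell identity, had signals of 125.5 and 116.2 on double knockout arrays, 72.6 and 80.8 on Ku86 knockout arrays, and 71.9 and 104.8 on Terc knockout arrays, against 64.6 and 45.7 on wild type arrays. The double knockout arrays were the highest of the 8 and the wild type arrays the lowest, while the Ku86 and Terc knockouts overlapped each other. On the log2 scale the mean difference from wild type was 1.15 ± 0.365 (SE) for the double knockout, 0.50 for the Ku86 knockout and 0.68 for the Terc knockout, with the same error in each comparison.

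Gata4 encodes a zinc finger factor that drives Sertoli and Leydig cell genes. Its signals were 245.5 and 228.6 in double knockouts, 178.4 and 202.1 in Ku86 knockouts, and 187.3 and 243.6 in Terc knockouts, against 140.6 and 150.2 in wild type. All 6 knockout arrays exceeded both wild type arrays, and the ranges of the Terc and double knockouts overlapped. The differences from wild type on the log2 scale were 0.71, 0.39 and 0.56 for the double, Ku86 and Terc knockouts, each ± 0.255 (SE).

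Gata1, known as the master factor of red blood cell development and also made by Sertoli cells, was read by a pair of probe sets that disagreed. The dimmer probe set had 65.3 and 41.3 in double knockouts, 14.5 and 41.2 in Ku86 knockouts, and 36.5 and 72.2 in Terc knockouts, against 66.5 and 65.5 in wild type. The brighter probe set had 78.1 and 87.2 in double knockouts, 80.4 and 89.6 in Ku86 knockouts, and 102.4 and 140.4 in Terc knockouts, against 64.8 and 78.3 in wild type. The dimmer one was lowest on average in the Ku86 knockouts and was the one member probe set with a mean below wild type in every knockout genotype; the brighter one was highest in the Terc knockouts. For the mean of the 3 knockouts, the log2 difference from wild type was -0.71 ± 0.498 (SE) for the dimmer and 0.41 ± 0.276 for the brighter. Across the 8 arrays the log2 signals of the pair correlated at r = 0.10. Of the 4 erythroid genes tested, 1 had a higher mean in the knockouts than in wild type (60.9% of all probe sets). In limma 0 were called (0.0137% of all probe sets). An unadjusted p under 0.05 was found for 1 of them (9.72% of all). The summed signal of the 5 on the array was 1737 to 1884 in double knockouts, 1305 to 2892 in Ku86 knockouts, and 1937 to 3643 in Terc knockouts, against 2801 to 3607 in wild type. The ranges of the Ku86 and Terc knockouts overlapped that of wild type. The part of red blood cells in the Gata1 values was not tested.

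Fshr, the receptor for follicle-stimulating hormone, followed another order. Its signals were 256.2 and 263.7 in double knockouts, 296.1 and 322.1 in Ku86 knockouts, and 331.6 and 451.2 in Terc knockouts, against 201.7 and 315.6 in wild type. The Terc knockouts were above all other arrays, the double knockouts lay within the range of the wild type arrays, and the Ku86 knockouts overlapped it. The differences from wild type were 0.04, 0.29 and 0.62 on the log2 scale for the double, Ku86 and Terc knockouts, each ± 0.272 (SE). Without wild type replicate 1 they were -0.28, -0.03 and 0.29 for the double, Ku86 and Terc knockouts. The mean of the 3 knockouts over wild type, 0.32 ± 0.222 (SE) on all arrays, was -0.0059 without wild type replicate 1, 0.02 with scan day as a block and 0.04 after median centring.

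The promoter of Fshr is known for a CACGTG E-box, the word bound by upstream stimulatory factors in Sertoli cells. RefSeq promoters (assembly GRCm38.p6) matched 5 of the 9 members, namely Gata1, Fshr, Dhh, Kitl and Aqp8, and the word was present in the 250 bases before the start of 2 of them, Fshr and Aqp8, while 6.02% of all 32851 promoters in the table hold it. Both are printed 5′ to 3′ on the strand of the gene, with the E-box in capitals, because these genes share the word. The part of the E-box in their signals was not tested. The Fshr window is chr17:89200676-89200925 on the minus strand, with the first base of the word 61 bases before the start. The Aqp8 window is chr7:123462044-123462293 on the plus strand, with the word 75 bases before the start.
Fshr: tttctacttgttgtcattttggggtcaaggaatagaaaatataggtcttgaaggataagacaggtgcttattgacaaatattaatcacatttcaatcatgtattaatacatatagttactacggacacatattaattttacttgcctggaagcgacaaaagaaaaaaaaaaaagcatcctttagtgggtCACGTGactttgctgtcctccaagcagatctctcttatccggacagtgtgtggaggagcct
Aqp8: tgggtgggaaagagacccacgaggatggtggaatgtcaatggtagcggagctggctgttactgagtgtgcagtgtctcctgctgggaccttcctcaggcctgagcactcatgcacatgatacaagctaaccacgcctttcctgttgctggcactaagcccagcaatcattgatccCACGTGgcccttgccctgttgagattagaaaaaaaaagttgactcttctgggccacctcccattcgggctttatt
The GATA words AGATAA or else AGATAG, then TGATAA or else TGATAG, searched on both strands, were found in 0 of the 5 member windows and in 26.5% of all promoters. The WT1 words GCGGGGGCG and GCGTGGGAG, searched in the same way, were found in 0 of the 5 and in 2.96% of all. The match is a description of letters in these windows.

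Clu encodes clusterin, an extracellular chaperone and a main secretory product of Sertoli cells. Its brighter probe set had 1409.6 and 1062.5 in double knockouts, 475.2 and 976.3 in Ku86 knockouts, and 842.4 and 510.5 in Terc knockouts, against 493.7 and 396.8 in wild type. The dimmer probe set had 642.9 and 585.8 in double knockouts, 275.3 and 481.9 in Ku86 knockouts, and 400.2 and 293.5 in Terc knockouts, against 276.2 and 241.8 in wild type. Both probe sets put the double knockout arrays above the other 6, a pattern that 5.26% of all tested probe sets showed, and both put Ku86 knockout replicate 1 inside the wild type range. The difference of the double knockout from wild type was 1.47 ± 0.337 for the brighter and 1.25 ± 0.286 for the dimmer probe set on the log2 scale (SE), or 2.76-fold and 2.37-fold. Replicates within a genotype were far apart: the higher Ku86 knockout array had 2.05 times the signal of the lower one at the brighter probe set, and the higher Terc knockout array 1.65 times.

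Kitl, the stem cell factor that supports spermatogonia, had signals of 87.9 and 65.5 in double knockouts, 25.9 and 74.9 in Ku86 knockouts, and 44.8 and 30.1 in Terc knockouts, against 20.6 and 24.6 in wild type. Every knockout array was above both wild type arrays, but Ku86 knockout replicate 1 only just, and the 2 Ku86 knockout arrays differed 2.89-fold. Both wild type signals were under 38.1, the level on which the filter of mean signal was set, so the probe set passed through its knockout values. Differences from wild type were 1.75, 0.97 and 0.71 on the log2 scale for the double, Ku86 and Terc knockouts, each with an error of 0.611 (SE), among the widest of the members.

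Dhh encodes desert hedgehog, the Sertoli cell ligand for Leydig and peritubular cells. Its brightest probe set had 369.3 and 341.1 in double knockouts, 325.8 and 327.4 in Ku86 knockouts, and 315.3 and 354.5 in Terc knockouts, against 201.2 and 266.6 in wild type. The 3 knockout genotypes lay together and above wild type, with log2 differences of 0.62, 0.50 and 0.53 for the double, Ku86 and Terc knockouts (SE 0.235). The second probe set had 156.6 and 169.3 in double knockouts, 226.7 and 159.9 in Ku86 knockouts, and 129.0 and 255.5 in Terc knockouts, against 153.9 and 152.0 in wild type. Here the Terc knockout arrays fell on either side of wild type, and the mean of the 3 knockouts exceeded wild type by 0.22 ± 0.275 (SE) but by -0.06 when arrays were centred on their medians; the double knockout alone then stood at -0.18, and at -0.05 after quantile normalization, in place of 0.09, and the Terc knockout at -0.09 after median centring, in place of 0.25. The pair of Dhh probe sets correlated at r = 0.34 across the 8 arrays.

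Aqp8, a water channel of the testis, had 143.1 and 172.8 in double knockouts, 113.8 and 138.3 in Ku86 knockouts, and 113.4 and 149.6 in Terc knockouts, against 98.4 and 71.9 in wild type. The wild type arrays were the lowest, and the Ku86 and Terc knockouts had near-equal ranges. The differences from wild type were 0.90, 0.58 and 0.63 on the log2 scale for the double, Ku86 and Terc knockouts (SE 0.312). Aard, whose role is left unnamed here, had 851.3 and 656.7 in double knockouts, 577.6 and 611.0 in Ku86 knockouts, and 706.2 and 704.6 in Terc knockouts, against 519.6 and 442.5 in wild type. Its Ku86 knockout arrays were the lowest knockout arrays, and its log2 differences from wild type were 0.64, 0.31 and 0.56 for the double, Ku86 and Terc knockouts (SE 0.211).

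**Figure D2:**
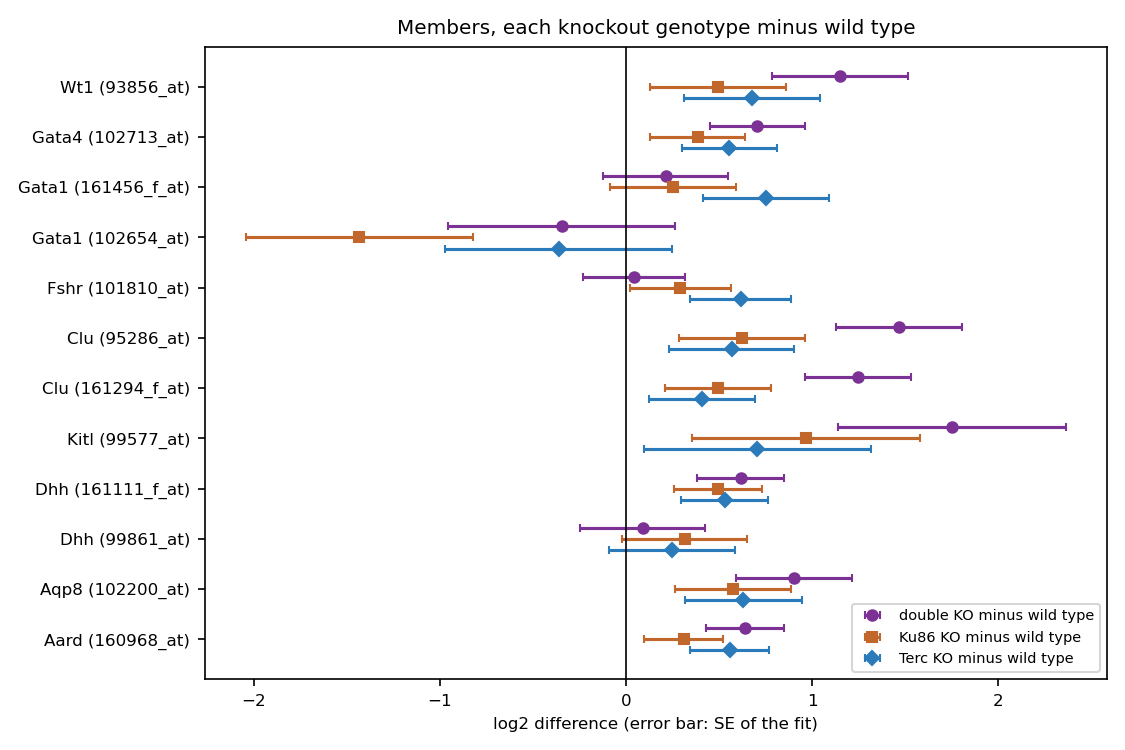
Log2 difference of each knockout genotype from wild type for the 12 member probe sets, as points with bars of 1 SE from the limma fit, in the order double knockout, Ku86 knockout and Terc knockout. In each comparison 11 of 12 points lie above 0, and the dimmer Gata1 probe set is the exception in all 3, but Fshr, the brighter Gata1 and the second Dhh probe set fall below 0 in the double knockout when arrays are rescaled by median or quantile; the values carry no test because the members were chosen on these contrasts.

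The contrasts between knockouts did not choose the members and were tested with limma over all 7282 probe sets. In the double knockout against the Terc knockout, 0 of the 12 member probe sets were called at an adjusted p under 0.05, as were 0 of all probe sets (0%). At an unadjusted p under 0.05 there were 2 of 12, both of Clu, beside 310 of all (4.26%). Clu was higher in the double knockout by 0.90 (95% interval 0.16 to 1.64) at the brighter probe set and by 0.84 (0.22 to 1.46) at the dimmer, and each had an adjusted p of 0.990 in limma. Fshr had the largest difference on the other side, -0.57 (-1.17 to 0.02), and its 2 double knockout arrays were below both Terc knockout arrays. Without overlap, 4 of 12 were higher in the double knockout (background 15.4%) and 2 were lower (17%). The 4 were Wt1, Kitl and both Clu probe sets, so Clu entered by 2. Kitl passed the filter through its knockout values, with 87.9 and 65.5 in double knockouts, so nothing is read from the count. On scan day 2, which held 1 double and 2 Terc knockout arrays, Clu differed by 0.70 at the brighter and 0.77 at the dimmer probe set, and Fshr by -0.55.

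In the double knockout against the Ku86 knockout, again 0 of 12 members and 0 of all probe sets (0%) were called in limma, and 2 of 12 and 245 of all (3.36%) had an unadjusted p under 0.05. The 2 were once more Clu, higher in the double knockout by 0.85 (95% interval 0.11 to 1.58) at the brighter probe set and by 0.75 (0.13 to 1.38) at the dimmer, with adjusted p of 1.00 in limma. Both double knockout arrays were above both Ku86 knockout arrays at 8 of 12 member probe sets, against 15.5% of all, and below them at 1, Fshr (16.6%). The 8 include both Clu probe sets and the dimmer Gata1 probe set. At the latter, 65.3 and 41.3 in double knockouts stood against 14.5 and 41.2 in Ku86 knockouts. Nothing is read from the count. Each genotype had 1 array on scan day 1 and 1 on scan day 2, and the size of the difference varied with the pair. The brighter Clu probe set differed by 1.57 on day 1 and 0.12 on day 2, the dimmer by 1.22 and 0.28, and Kitl by 1.76 and -0.19 (log2). The dimmer Gata1 probe set moved most, from 2.17 on day 1 to 0.0035 on day 2. Aard went from 0.56 to 0.10, Gata4 from 0.46 to 0.18, the brightest Dhh probe set from 0.18 to 0.06 and the second from -0.53 to 0.08. Wt1, at 0.79 on day 1 and 0.52 on day 2, was steadier, as was Fshr at -0.21 and -0.29. Aqp8, at 0.33 and 0.32, and the brighter Gata1 probe set, at -0.04 on both days, hardly moved.

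The Ku86 knockout against the Terc knockout gave 0 calls among the 12 members in limma, with 0 of them at an unadjusted p under 0.05, while 1 probe set of all was called (0.0137%) and 174 (2.39%) had an unadjusted p under 0.05. Differences ran from -1.07 ± 0.610 (SE) for the dimmer Gata1 probe set to 0.26 ± 0.611 for Kitl. At 3 of 12 member probe sets both Ku86 knockout arrays were below both Terc knockout arrays (background 15.5%), and at 0 above them (12.1%). The 95% interval for the brighter Clu probe set ran from -0.68 to 0.79, so the 2 single knockouts are not shown to act alike.

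Members fell into groups by their order across arrays, and the grouping was made after the values were seen. Over the 6 knockout arrays, log2 signals of the 2 Clu probe sets correlated at r = 0.98, and Clu with Kitl at 0.97 and 0.96. Wt1 correlated with Gata4 at 0.94, with the brightest Dhh probe set at 0.91 and with Aqp8 at 0.84, and the brighter Gata1 probe set with Fshr at 0.94. The dimmer Gata1 probe set correlated with Gata4 at 0.87 and with Fshr at 0.28, so the pair of Gata1 probe sets did not fall into one group. Clu and Fshr went in opposite orders, with r of -0.66 and -0.69, as did Clu and the second Dhh probe set, with -0.76 and -0.68. Of the 63 pairs of probe sets from different genes, 9 had r over 0.8 and 16 had r below 0. These arrays are 3 genotypes of 2 each and share scan days, so the coefficients describe the arrays and carry no test.

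**Figure D3:**
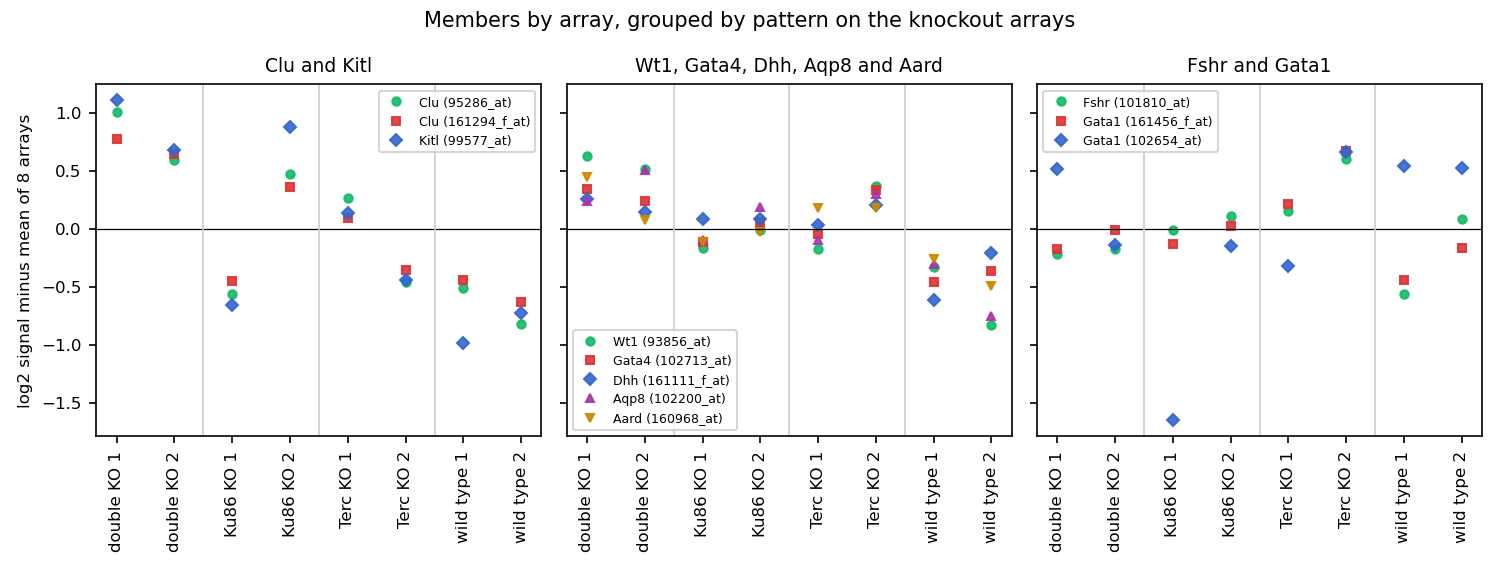
Log2 signal minus the mean of the 8 arrays for the member probe sets, named in the legends, in panels of Clu and Kitl, of Wt1, Gata4, Dhh, Aqp8 and Aard, and of Fshr and Gata1, with arrays from left to right double knockout, Ku86 knockout, Terc knockout and wild type. Clu and Kitl dip at Ku86 knockout replicate 1 and Terc knockout replicate 2, whereas Fshr and Gata1 peak at Terc knockout replicate 2. The second Dhh probe set is not shown. Both Gata1 probe sets are drawn with Fshr, although the dimmer correlated with Fshr at only 0.28 over the knockout arrays.

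Averaged over the 9 genes, the deviation from the 8-array mean was 0.41 and 0.29 on double knockout arrays, -0.19 and 0.20 on Ku86 knockout arrays, and 0.07 and 0.20 on Terc knockout arrays, against -0.50 and -0.48 on wild type arrays (log2). The wild type arrays were the lowest and lay close together, and Ku86 knockout replicate 1 was the lowest of the knockout arrays. Wild type replicate 1 also had the lowest median signal over all probe sets. Without it, the median of the 9 genes over wild type was 0.62 in place of 0.55, and 10 of 12 member probe sets were above 0 in place of 11. On scan day 2 alone, which held arrays of all 4 genotypes, that median was 0.57 and 11 of 12 were above 0.

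**Figure D4:**
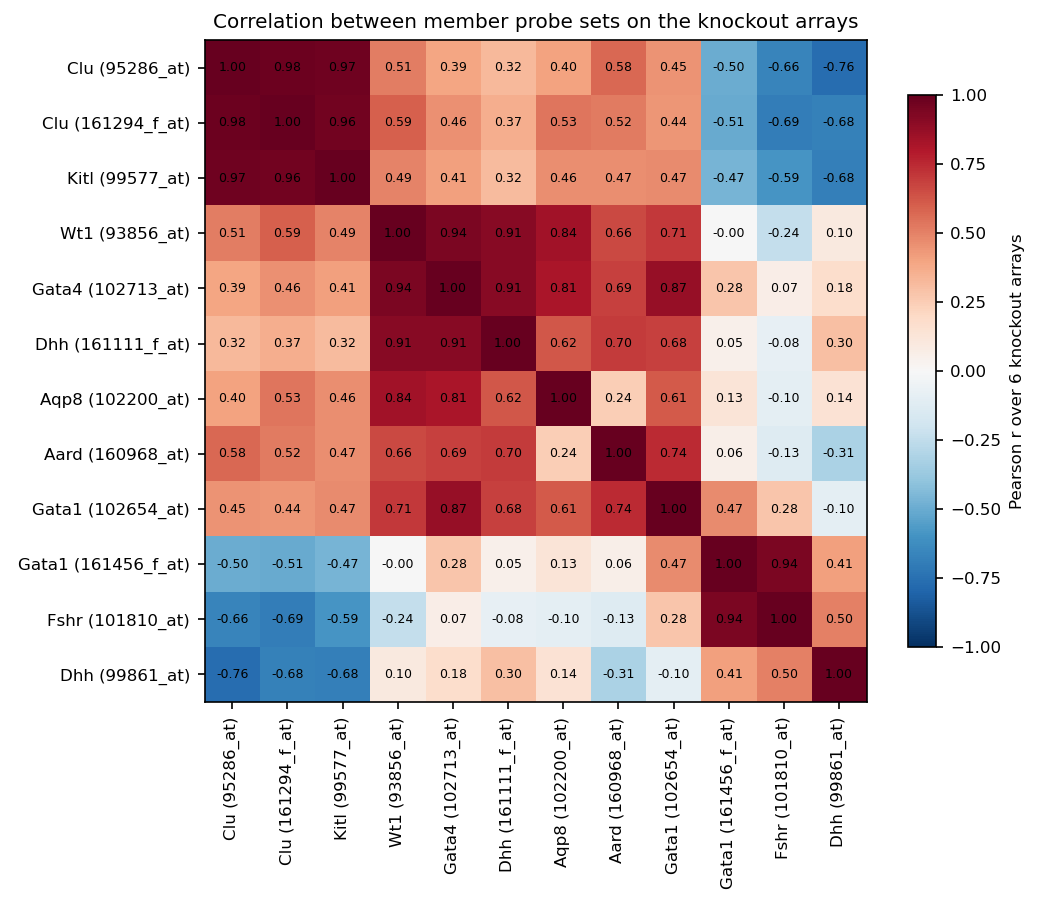
Pearson correlation of log2 signal between the 12 member probe sets over the 6 knockout arrays, as a colour scale from -1 to 1. Clu and Kitl form a block of high values, and Fshr with the brighter Gata1 probe set another. Wt1, Gata4, the brightest Dhh probe set and Aqp8 form a looser block, with 0.62 between that Dhh probe set and Aqp8. The dimmer Gata1 probe set (0.87 with Gata4) and Aard (0.69 with Gata4) lie near this looser block.

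Other genes known from Sertoli cells were read from a list of 28, written with earlier results of these data known. Of these, 19 were on the array and 15 passed the filter. In the mean of the 3 knockouts 14 of these 15 had a higher mean log2 signal than wild type, beside 60.9% of all probe sets. The median difference was 0.34 beside 0.09 for all probe sets. That median is the value of Dmrt1. Its wild type signals of 27.6 and 38.0 lay under 38.1, the filter level, so it passed through its knockout values. Nothing is therefore read from the count or the median. Among the 14, Amh, Tjp1, Nr5a1 and Tsx differed by only 0.09, 0.09, 0.09 and 0.06. The dimmer Nr5a1 probe sets that passed the filter went the other way, at -0.09 and -0.11. None of the 15 was called by limma, where 0.0137% of all probe sets were, and 4 had an unadjusted p under 0.05, beside 9.72% of all probe sets. Those 4 were Cst9, a cystatin-related protein, at 0.69 ± 0.225, Cldn11, the tight junction claudin of the blood-testis barrier, at 0.96 ± 0.314, Ctsl, the protease cathepsin L, at 1.02 ± 0.344, and Gja1, the gap junction connexin, at 1.06 ± 0.370 (log2 ± SE, each with an adjusted p of 0.442). The 1 gene with a lower mean was Cdh2, N-cadherin, at -0.07 ± 0.342. Ctsl had 778.6 and 602.1 in double knockouts, 194.5 and 484.8 in Ku86 knockouts, and 411.7 and 191.3 in Terc knockouts, against 183.7 and 199.6 in wild type. As for Clu, the double knockouts were on top and the replicates of each single knockout lay far apart. Over the 6 knockout arrays 9 of the 15 genes correlated more closely with Clu than with Gata4 or Fshr, among them Ctsl at r = 0.995, Inha, the alpha subunit of inhibin, at 0.972, and Cst9 at 0.952. Another 2 were closest to Gata4 and 4 to Fshr, although 1 of the 4, Tjp1, had a negative r with all 3 (-0.08 with Fshr), and these 3 members were picked for comparison after their values were seen.

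Receptors, pathway components and cofactors of the members formed a list of 25, of which 19 were on the array and 15 passed the filter. Of the 15, 10 had a higher mean in the 3 knockouts than in wild type and 5 a lower one, where 60.9% of all probe sets were higher. The median difference was 0.07, beside 0.09 for all probe sets. In limma 0 were called, with 2 at an unadjusted p under 0.05, beside 0.0137% and 9.72% of all probe sets. Prkacb, a catalytic subunit of the protein kinase A that acts below Fshr, had 206.0 and 250.8 in double knockouts, 138.0 and 235.9 in Ku86 knockouts, and 169.1 and 244.4 in Terc knockouts, against 91.2 and 80.2 in wild type. All its knockout arrays were above wild type, by 1.25 ± 0.264 on the log2 scale, with an adjusted p of 0.193 in limma. Prkacb was called under none of the alternatives run other than scan day 2 alone. That setting left 1 array in every genotype but the Terc knockout, which had 2, so its call is not read as a result. The regulatory subunit Prkar1a differed by 0.51 ± 0.190, the hedgehog receptor Ptch1 by 0.55 ± 0.332 and Kit, the receptor of Kitl, by 0.58 ± 0.373. On the lower side stood Zfpm1, the cofactor of Gata1, at -0.38 ± 0.219, Gas1, a hedgehog co-receptor, at -0.41 ± 0.287, the adenylyl cyclase Adcy3 at -0.54 ± 0.663 and Prkar2a at -0.06 ± 0.157 (log2 ± SE). None of these 7 had an adjusted p under 0.45 in limma.

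Markers of other testis cells gave 0 calls in limma in the lists that follow, beside 0.0137% of all probe sets. Of all probe sets 60.9% had a higher mean in the 3 knockouts than in wild type, with a median difference of 0.09. Peritubular muscle genes had a higher mean in the 3 knockouts for 6 of 7 tested, with a median of 0.58, and their summed signal was 4227 to 4231 in double knockouts, 3618 to 3802 in Ku86 knockouts, and 3353 to 4296 in Terc knockouts, against 3851 to 3936 in wild type. Within that list Myh11, smooth muscle myosin, had 95.7 and 120.7 in double knockouts, 49.5 and 81.4 in Ku86 knockouts, and 65.4 and 30.4 in Terc knockouts, against 4.6 and 9.8 in wild type, and the lowest adjusted p of the list, 0.119 in limma. Both wild type values were under the floor of 11.8 and were set to it before the fit, and the gene passed the filter through its knockout values. Leydig cell genes had a higher mean for 5 of 5 (median 0.32), with sums of 1040 to 1800 in double knockouts, 794 to 1182 in Ku86 knockouts, and 991 to 1544 in Terc knockouts, against 830 to 1006 in wild type. Spermatogonial genes had a higher mean for 4 of 4 (median 0.48), with sums of 2687 to 3018 in double knockouts, 2442 to 2929 in Ku86 knockouts, and 2196 to 2746 in Terc knockouts, against 1560 to 2522 in wild type. Round spermatid genes had a higher mean for 1 of 7 (median -0.21), with sums of 12750 to 16671 in double knockouts, 12316 to 16040 in Ku86 knockouts, and 12809 to 15042 in Terc knockouts, against 15846 to 18143 in wild type. Spermatocyte, elongating spermatid and macrophage genes had medians of 0.01, 0.04 and 0.05. An unadjusted p under 0.05 was found for 3 peritubular and 2 spermatogonial genes, and for 0 genes of the other lists in this paragraph, beside 9.72% of all probe sets. The spermatocyte marker Sycp3 was under the floor on all 8 arrays. The part of these cell types in the members' values was not tested.

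Genes outside the family whose log2 signal was most like the mean z score of the members over the 8 arrays were Cd81, a tetraspanin, at r = 0.986, Hsd17b12, an enzyme of fatty acid elongation, at 0.976, Tmem223 at 0.971, the histone reader Spin1 at 0.969, the proteasome subunit Psmd11 at 0.968 and Sar1a, a GTPase of vesicle export, at 0.958. In all, 43 probe sets had r over 0.9. Cd81 had 313.6 and 328.4 in double knockouts, 217.4 and 287.7 in Ku86 knockouts, and 261.4 and 331.9 in Terc knockouts, against 173.7 and 186.4 in wild type. Its wild type arrays were the lowest, as they were at 6 of the 12 member probe sets tested. The likeness is how Cd81 was picked, so nothing is read from it. Over the 6 knockout arrays alone the closest were Gstm3 at 0.983, Lypla1 at 0.980, Pbx3 at 0.979, Lama2 at 0.970, Gnb1 at 0.968 and Dazl, a germ cell RNA-binding protein, at 0.957, with 63 probe sets over 0.9. The 2 sets of 6 named genes had 0 genes in common. The Lypla1 probe set, beside which 4 others were tested, was higher in wild type than on any knockout array, with 364.5 and 345.4 in double knockouts, 225.4 and 288.2 in Ku86 knockouts, and 288.6 and 344.9 in Terc knockouts, against 487.9 and 455.1 in wild type. Pbx3, Lama2 and Dazl were lowest on average in wild type.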

How the data were processed

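Each deposited value is a linear intensity of 1 probe set, already brought to a common trimmed mean by the authors, whose software the labels do not name. Values were floored at the pooled 20th percentile (11.8) and put on the log2 scale, which was computed from the deposited intensities. Of 12422 probe sets that are not controls, 5140 with a mean log2 signal under that of the pooled 40th percentile (38.1) were left out and 7282 tested on all 8 arrays in R 4.3.3 by limma 3.58.1, using lmFit and trended eBayes, with 1 mean per genotype and two-sided p-values adjusted by Benjamini-Hochberg over all probe sets of a contrast (threshold 0.05). Of all 12488 probe sets, 10855 had 1 gene symbol in the platform annotation, 396 several and 1237 none. The number of arrays limits the precision, and depth does not apply.

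The members and lists were chosen with earlier results of these data known. All member probe sets are named; from the Sertoli, pathway and relatives lists, up to 4 genes in each direction with the largest moderated t (markers of other cell types, which the same rule covers, are given by counts and medians, with Myh11 and Sycp3 named); and the 6 genes most like the members over 8 and over 6 arrays. Lists use the brightest probe set of each gene and were given by counts and medians. Same-numbered arrays were not treated as pairs. Alternatives were quantile normalization, median centring, other floors and filters, no trend, scan day and replicate blocks, scan day 2 alone, other sets of arrays in the fit, and each array left out. The fit was tested on simulated data.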

Additional observations from a re-analysis of the deposited data

Results flagged for a closer look

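For 2 member probe sets the loss of one gene went in opposite directions in the 2 backgrounds on every array, and the difference between those effects was not tested. The brighter Gata1 probe set differed by -0.54 between double and Terc knockouts (loss of Ku86 without Terc), and by 0.25 between Ku86 knockouts and wild type (loss of Ku86 with Terc present), on the log2 scale. The dimmer Gata1 probe set did not share this pattern, with 0.02 and -1.43 in the same comparisons. Fshr differed by -0.25 between double and Ku86 knockouts (loss of Terc without Ku86), and by 0.62 between Terc knockouts and wild type (loss of Terc with Ku86 present). Without wild type replicate 1 the Fshr value of 0.62 was 0.29 and the Gata1 value of 0.25 was 0.12, and after median centring they were 0.28 and 0.02.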

How the results depend on the processing

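In the 3 contrasts between knockouts, 0 members were called under each alternative run, with lowest adjusted p in limma of 0.521 for the double against the Terc knockout, 0.402 for the double against the Ku86 knockout and 0.976 for the Ku86 against the Terc knockout. Counts over all probe sets were small and moved. Scan day 2 alone left 1 array in every genotype but the Terc knockout, and each array left out left 1 in its genotype. Calls under these settings are therefore not read as results. Double against Terc knockout gave 0, but 10 with no filter, 9 on scan day 2 alone, 1 with only the compared groups in the fit, and 0 to 2 with each array left out. Double against Ku86 knockout gave 0, but 4 with no filter, 13 on scan day 2 alone and 0 to 2 with each array left out. Ku86 against Terc knockout gave 1, but 3 under the higher floor (40th percentile), 11 with no filter, 12 on scan day 2 alone, 0 under quantile normalization, without the trend, with the scan day block or with only the compared groups, and 0 to 2 with each array left out. With the replicate number as a block that count was 0 as well. Deviations of same-numbered arrays correlated at 0.0126 to 0.254, so the numbers were not taken as pairs, and the block changed no other call among the results here. The members' median over wild type of 0.55 became 0.27 under median centring, where the median of all probe sets was -0.18, and 0.52 to 0.62 with each array left out. The pathway list's median of 0.07 became -0.21 under median centring. It was 0.26 with the scan day block or on scan day 2 alone, and 0.08 to 0.13 with each array left out. Of that list only Prkacb was called under any alternative, on scan day 2 alone. The other Sertoli genes' median ranged from 0.07 to 0.47 (0.19 to 0.47 with each array left out), with 0 called. Of 636 values of single member probe sets, 591 moved by less than 1 SD between replicates; of 204 alternative differences of the mean of the 3 knockouts from wild type, 2 changed sign, Fshr (-0.0059 without wild type replicate 1) and the second Dhh probe set (-0.06 under median centring). The cause of these changes was not tested. The SE of a contrast between 2 genotypes, 0.211 to 0.611 on the log2 scale for member probe sets, limits the differences that could be called.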

Other observations

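Relatives of the members in the GATA and aquaporin families were read by 4 genes that passed the filter, of 9 on the array. The mean of the 3 knockouts differed from wild type by 0.16 ± 0.214 (log2, SE) for Gata2 and 0.31 ± 0.302 for Gata6, a factor also known from Leydig cells, and by -0.15 ± 0.164 for Aqp7, a glycerol channel of spermatids, and -0.09 ± 0.182 for Aqp9, another glycerol channel. The median was 0.03, beside 0.09 for all probe sets, and 0 of the 4 were called in limma, with 0 at an unadjusted p under 0.05. Gata6 had signals of 109.2 and 99.8 in double knockouts, 99.0 and 90.9 in Ku86 knockouts, and 78.2 and 50.4 in Terc knockouts, against 58.7 and 81.3 in wild type.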
